A study of Arabidopsis thaliana with 12 samples.

Results

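The genes described here are 4 nuclear genes for the steps that carry carbon and reducing power out of photosynthesis. SBPASE (AT3G55800) and PRK (AT1G32060) encode enzymes of the Calvin cycle, AT5G58330 encodes the plastid NADP-malate dehydrogenase (NADP-MDH), and ATSPS4F (AT4G10120, SPS4F below) encodes a sucrose phosphate synthase. They were taken by name, with earlier results of these data known. To each of them exactly 1 probe of the platform's gene table maps, with no other gene on that probe. Each of the 4 had 1 such probe among 692 single-gene probes and 3439 features, and each was above 0 in all 12 samples.

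The study compared Arabidopsis thaliana plants of the prors2 line with wild-type (WT) plants, both of ecotype Columbia 0. By the labels, prors2 is a mutant in which prolyl-tRNA synthetase, the enzyme that charges tRNA with proline, is missing. There were 6 WT and 6 prors2 samples of total RNA, numbered 1 to 6 in each group, each on an array of its own. The sources used here give no allele, tissue, age or growth conditions. They do not say either whether the 6 samples of a group are separate plants, so a p-value here speaks of the spread among these samples, and that spread may be technical. No probe is tied to the organellar (AT5G52520) or the cytosolic (AT3G62120) prolyl-tRNA synthetase gene, so the mutation was not checked at the transcript level. Of 13 marker loci listed for root, flower and seed, 0 had a single-gene probe, so the tissue was not checked either.

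In the Calvin cycle, Rubisco fixes carbon dioxide onto ribulose bisphosphate, and the following reactions rebuild that acceptor. Sedoheptulose-bisphosphatase and phosphoribulokinase both act in the rebuilding, the first by an irreversible dephosphorylation of a sugar bisphosphate and the second by the last step, which makes ribulose bisphosphate. NADP-MDH works at the malate valve: it reduces oxaloacetate to malate with NADPH in the stroma, and malate then carries the surplus reducing power out of the chloroplast. Sucrose phosphate synthase joins UDP-glucose and fructose 6-phosphate in the cytosol, a regulated step on the way to sucrose. The enzymes made from SBPASE, PRK and AT5G58330 are switched on in the light by reduced thioredoxins, which is a control of the protein and is not seen by an array of transcripts.

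The deposited values are relative intensities on a linear scale that ends at 100, and no source used here says what they are relative to. An array's median feature lay between 0.135 and 0.169 in WT and between 0.279 and 0.305 in prors2, and 368 to 396 features were at 0 on a WT array against 262 to 316 on a prors2 array. How large a difference appears therefore depends on how the arrays are brought to one scale. The sizes below are log2 differences, prors2 minus WT, after quantile normalization, which gives every array the same distribution of values. They come from a limma fit to all 3024 features with at least 4 of 6 values above 0 in each group, and a feature is called past an adjusted p of 0.05. The same fit was run on unscaled deposited values, on arrays brought to equal sums and on arrays centred on their medians. The median difference of all tested features was 0.07 after quantile normalization, 0.76 with no scaling, 0.69 at equal sums and -0.02 with medians centred.

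NADP-MDH and SBPASE fell in prors2, SPS4F rose, and PRK did not pass the test. NADP-MDH was 2.60-fold lower and SPS4F 1.75-fold higher, and these 2 were called in the same direction under each of the 4 scalings. SBPASE was 1.88-fold lower, but was called neither on the deposited values nor at equal sums. PRK had the same mean deposited value in both groups, 2.50, and was called lower after median centring only. In RNA of whole samples, fewer cells of a kind and less transcript per cell cannot be told apart. After quantile normalization 1 of the 4 genes was called higher and 2 lower, on an array where 24.8% of the tested features were called higher and 22.4% lower, 47.2% in all. Against such a background, 3 calls among 4 genes are no result about the group. With no scaling 57.8% of the features were called higher and 8.9% lower, at equal sums 55% and 9.85%, and after median centring 21.2% and 27.3%.

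**Figure D1:**
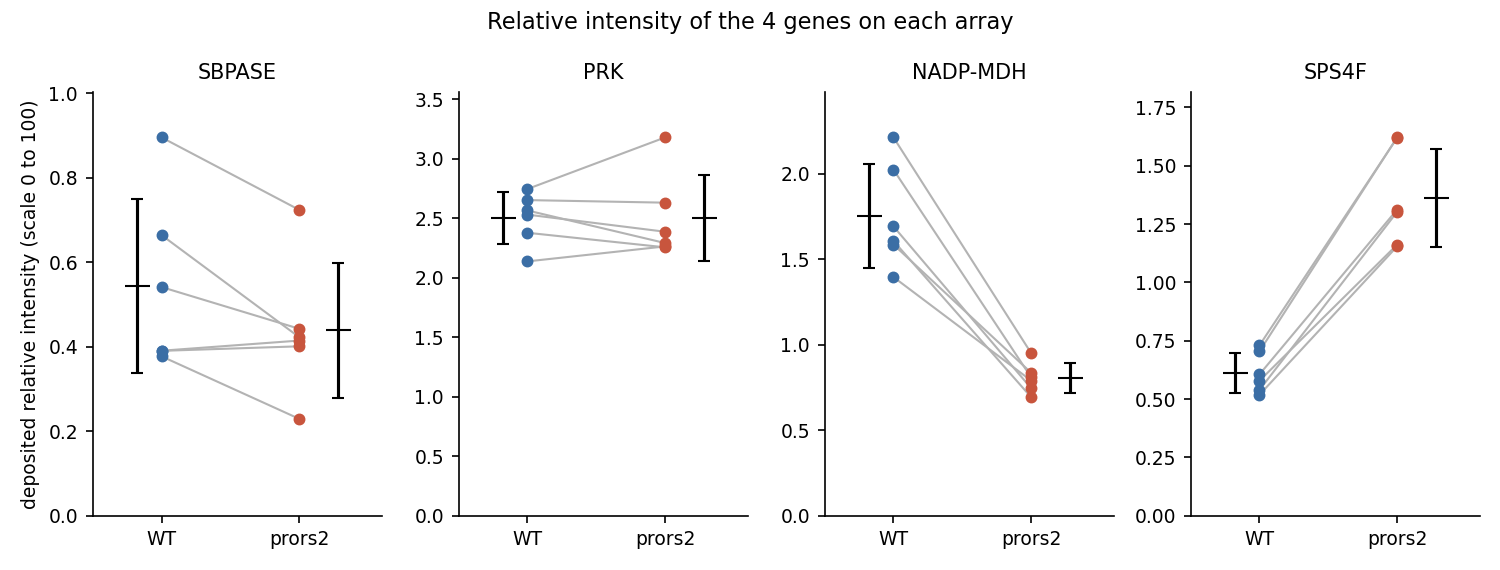
Deposited relative intensity (vertical axis, from 0, a separate range for each gene) of SBPASE, PRK, NADP-MDH and SPS4F on the 6 WT and the 6 prors2 arrays; each point is an array, a grey line joins arrays with the same replicate number, and the black bars beside the points give the mean and SD. Every NADP-MDH line goes down and every SPS4F line goes up, with no overlap between the groups, while the SBPASE and PRK groups overlap.

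NADP-MDH had a deposited relative intensity of 1.40 in the lowest WT sample, 1.65 at the median and 2.21 in the highest. In prors2 the lowest sample stood at 0.693, the median at 0.800 and the highest at 0.951. The highest prors2 sample thus lay below the lowest WT sample, a separation that 6.45% of the tested features showed in this direction on the deposited values and 14.8% after normalization. The means were 1.75 ± 0.31 (SD, n = 6) and 0.804 ± 0.088. After quantile normalization the difference was -1.38 (SE 0.14, 95% interval -1.68 to -1.07, limma adjusted p = 8.70e-06). It was -1.11 with no scaling, -1.19 at equal sums and -1.90 with medians centred, with limma adjusted p of 1.35e-05, 1.67e-05 and 1.31e-06.

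Samples with the same replicate number were also set against each other, because these samples deviate together over the array. NADP-MDH was lower in prors2 in 6 of 6 such pairs. In replicates 1, 2 and 3 the WT value was 2.32, 2.27 and 1.90 times the prors2 value. In replicates 4, 5 and 6 it was 1.77, 2.50 and 2.33 times the prors2 value. The smallest fall was in replicate 4, where WT had its lowest value, and the largest in replicate 5. The spread was wider in WT, where the 2 highest values, 2.03 and 2.21, belonged to replicates 5 and 6.

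SPS4F moved the other way. Its deposited relative intensity was 0.518 in the lowest WT sample, 0.592 at the median and 0.730 in the highest. In prors2 it was 1.15 in the lowest sample, 1.31 at the median and 1.62 in the highest. All 6 prors2 samples lay above all 6 WT samples, as they did in 38.2% of the tested features on the deposited values and in 16.3% after normalization. The WT mean was 0.613 ± 0.087 (SD, n = 6), and the prors2 mean 1.36 ± 0.21.

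The SPS4F difference was 0.80 after quantile normalization (SE 0.10, 95% interval 0.58 to 1.03, limma adjusted p = 5.50e-05). With no scaling it was 1.15 and at equal sums 1.08 (limma adjusted p = 1.22e-05 and 7.86e-06). After median centring it was 0.37 (95% interval 0.12 to 0.61, limma adjusted p = 0.0170), the smallest of the 4 sizes. The rise was even across replicate numbers: the prors2 value was 2.17, 2.42 and 2.22 times the WT value in replicates 1, 2 and 3, and 2.30, 2.01 and 2.23 times in replicates 4, 5 and 6. Replicates 3 and 4 had the 2 highest values of SPS4F in WT and also in prors2. The level thus moved with the replicate number while the difference between the groups varied little. In prors2 SPS4F stood at 1.31 and 1.30 in replicates 1 and 2. It was 1.62 in both 3 and 4, and 1.16 and 1.15 in 5 and 6. SBPASE in prors2 was not alike in this way, at 0.229 and 0.724 in replicates 3 and 4. The sum of an array's values was also highest in replicates 3 and 4, at 3136 and 3167 in WT and 3274 and 3278 in prors2. With sets of 2 numbers as a block in the limma fit, 1599 features were called, against 1605 with each replicate number as a block. Of the 4 genes, 1 was called higher and 2 lower with either block. Whether sets of 2 numbers repeat one source was not tested. If they do, 6 samples per group overstate the replication.

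Of the 4 genes SBPASE varied most among samples of one group, with a coefficient of variation of 38.0% in WT and 36.4% in prors2, against 8.67% and 14.4% for PRK. Its deposited relative intensity was 0.377 in the lowest WT sample, 0.466 at the median and 0.896 in the highest. In prors2 the lowest sample stood at 0.229, the median at 0.419 and the highest at 0.724. The groups overlapped, and replicate 3 was the lowest and replicate 4 the highest in both. The means were 0.543 ± 0.207 (SD, n = 6) and 0.439 ± 0.160.

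After quantile normalization SBPASE differed by -0.91 (SE 0.28, 95% interval -1.53 to -0.30, limma adjusted p = 0.0186). With the replicate number as a block the difference was the same and its SE fell to 0.14 (limma adjusted p = 0.00157). On the deposited values SBPASE differed by -0.31 (95% interval -0.92 to 0.31, limma adjusted p = 0.352) and at equal sums by -0.38 (limma adjusted p = 0.247). After median centring it differed by -1.09 (limma adjusted p = 0.00459). With the replicate block, SBPASE was called at equal sums (limma adjusted p = 0.0395) but not on the deposited values (limma adjusted p = 0.0774).

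The replicate numbers did not carry the SBPASE fall evenly. On the deposited values the WT sample was 1.57, 1.22, 1.65 and 1.24 times the prors2 sample in replicates 1 to 4. In replicates 5 and 6 the order was the other way, with prors2 at 1.06 and 1.03 times WT. After quantile normalization all 6 pairs were lower in prors2, from -1.42 in replicate 3 to -0.62 in replicate 5. Whether replicates 5 and 6 differ from the others in this gene was not tested.

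PRK differed least of the 4 after quantile normalization and on the deposited values. Its deposited relative intensity ran from 2.14 to 2.75 in WT with a median of 2.55, and from 2.26 to 3.18 in prors2 with a median of 2.34. The groups overlapped, and the highest prors2 value, in replicate 1, lay above all WT values. The means were 2.50 ± 0.22 and 2.50 ± 0.36 (SD, n = 6). After quantile normalization the difference was -0.02 (SE 0.11, limma adjusted p = 0.918), with a 95% interval from -0.25 to 0.22 on the log2 scale.

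For PRK, too, the reference decides the reading. With no scaling it differed by -0.01 and at equal sums by -0.08 (limma adjusted p = 0.960 and 0.536). After median centring it differed by -0.79 (95% interval -1.04 to -0.54, limma adjusted p = 1.08e-04). Bright features shifted less than dim ones on the deposited values: among features above 0 in all 12 samples, the median difference was 1.03 in the dimmest 25% and 0.29 in the brightest 25%. PRK, NADP-MDH and SPS4F lie among the brightest, and SBPASE in the 25% next to them, where the median was 0.66. By replicate number PRK was higher in prors2 in 2 pairs, 1 and 5, and lower in 4.

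**Figure D2:**
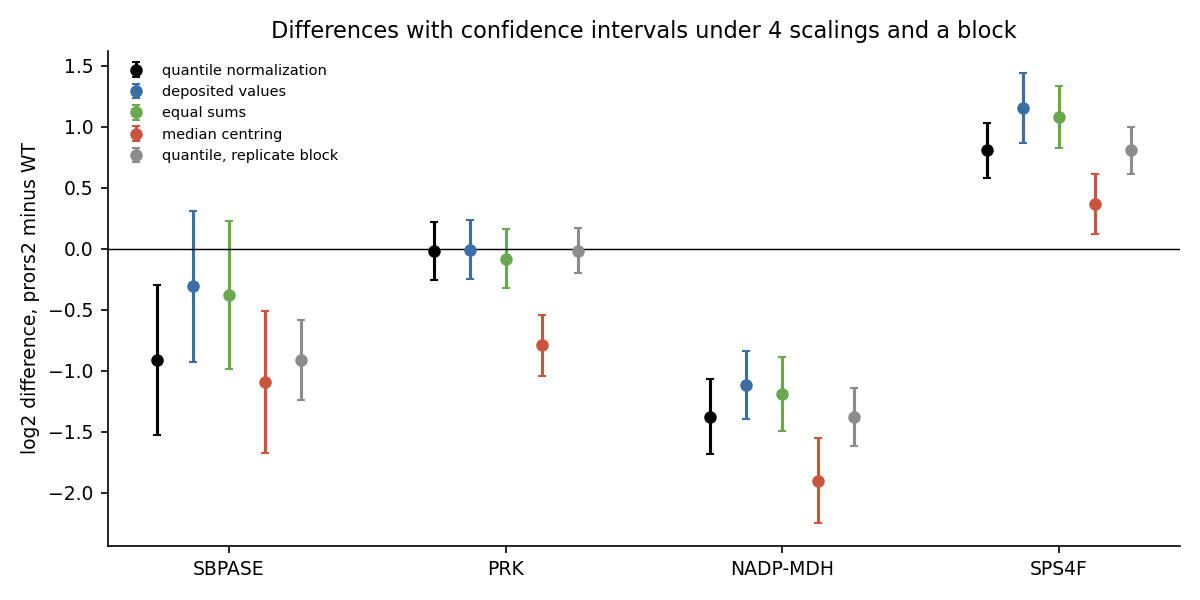
Log2 difference, prors2 minus WT, of each gene (points) with its 95% confidence interval from limma (bars), for quantile normalization, no scaling, equal sums, median centring, and quantile normalization with the replicate number as a block. The 5 intervals of NADP-MDH lie below 0 and those of SPS4F above 0, while the interval of SBPASE crosses 0 with no scaling or equal sums and that of PRK lies clear of 0 after median centring only.

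A ratio between 2 genes on the same array cancels any factor that the whole array carries, so the change of each ratio between the groups was compared on the deposited values. The level of such a ratio depends on the probes and has no meaning of its own. For all 6 pairs of the 4 genes the test was a two-sided exact permutation over the 12 samples, adjusted by Benjamini and Hochberg over the 6 pairs. The smallest p that 6 against 6 samples can give is 0.00216. Ratios that reached it here had an adjusted p of 0.00325, a value that depends on how many of the 6 pairs reached it.

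The widest change was that of NADP-MDH over SPS4F. Its log2 ratio averaged 1.51 ± 0.42 (SD, n = 6) on WT arrays and -0.75 ± 0.29 on prors2 arrays, and every prors2 array lay below every WT array. The ratio thus fell by 2.26 (SE 0.21), a 4.81-fold change, in 6 of 6 same-numbered pairs (exact permutation test, adjusted p = 0.00325). Both genes were already fully separated on these same values, in opposite directions. The separation of the ratio, the 6 of 6 pairs and the p therefore had to follow, and add nothing to the results of the 2 genes. The pairs ran only from -2.46 to -2.02, so the change of the ratio was of like size in every replicate number. Taken singly on the deposited values, the pair differences ran from -1.32 to -0.82 for NADP-MDH and from 1.01 to 1.27 for SPS4F.

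The ratios of PRK to both genes changed as well. PRK over NADP-MDH rose by 1.11 (SE 0.20) and PRK over SPS4F fell by 1.16 (SE 0.15), each in 6 of 6 pairs and with no overlap between groups (exact permutation test, adjusted p = 0.00325 for each). PRK itself differed by only -0.01 on these values. Both ratios therefore largely restate the single differences of NADP-MDH (-1.11) and SPS4F (1.15). SBPASE over SPS4F fell by 1.46 (SE 0.31), again in 6 of 6 pairs and without overlap (exact permutation test, adjusted p = 0.00325). Relative to SPS4F, then, all of the other 3 transcripts were lower in prors2 on any scale that multiplies a whole array by one factor. By their mean difference on the deposited values, 66.8% of the tested features were lower than SPS4F in the same sense. On the deposited values the groups did not overlap in 44.6% of the tested features taken singly. The share among ratios of other features was not computed, so separated ratios are not shown to be particular to these genes.

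The 2 Calvin cycle genes could not be told apart in this way. SBPASE over PRK changed by -0.30 (SE 0.29), lower in 4 of 6 pairs (exact permutation test, adjusted p = 0.331). SBPASE over NADP-MDH changed by 0.81 (SE 0.38), higher in 6 of 6 pairs, and missed the threshold (exact permutation test, adjusted p = 0.0753). Keeping the same-numbered samples together, with an exact sign-flip test over the 6 pairs whose smallest p is 0.0313, SBPASE over NADP-MDH passed at an adjusted p of 0.0375. Without WT replicate 4 the free permutation test also called it, at 1.03 (adjusted p = 0.0208), and likewise without prors2 replicate 3, at 0.99 (adjusted p = 0.0390). Taken from quantile-normalized values, which are not scaled by one factor per array, SBPASE over PRK passed at -0.89 (exact permutation test, adjusted p = 0.0182). On those values SBPASE over NADP-MDH shrank to 0.47 and did not pass (exact permutation test, adjusted p = 0.236).

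**Figure D3:**
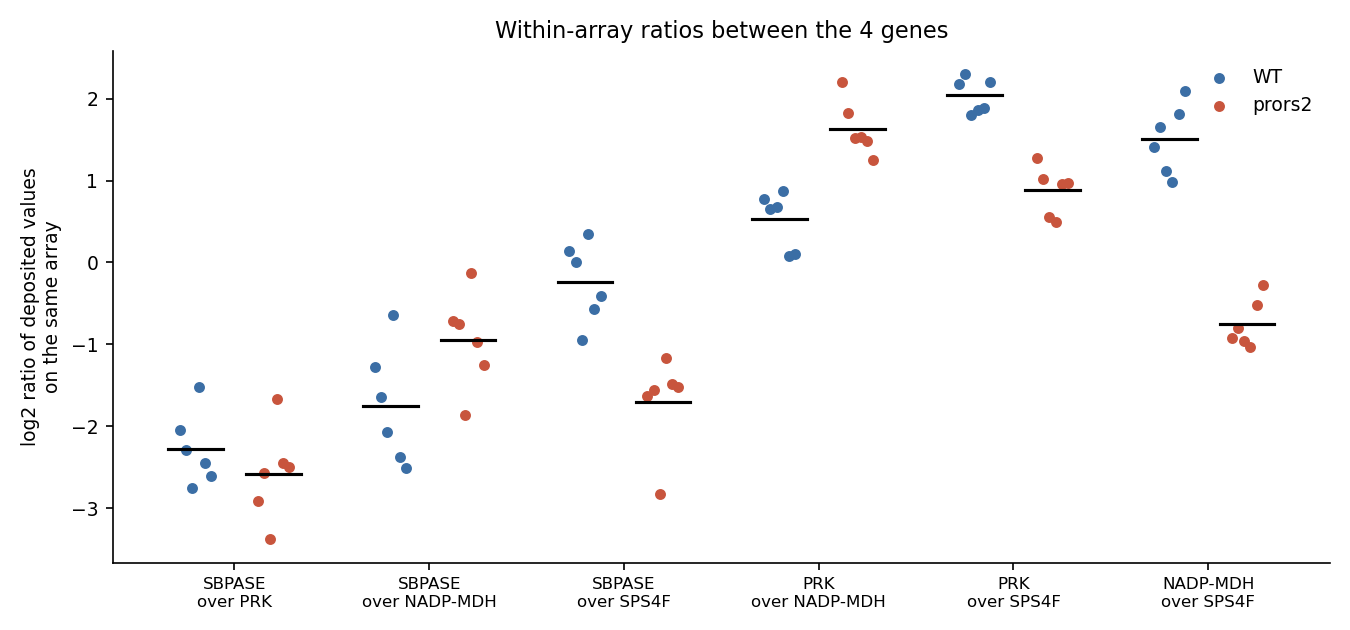
Log2 ratio of the deposited values of 2 genes on the same array (vertical axis) for the 6 pairs of genes; each point is an array, ordered by replicate number within a group, and the black line is the group mean. The WT and prors2 points do not overlap in the 4 pairs SBPASE over SPS4F, PRK over NADP-MDH, PRK over SPS4F and NADP-MDH over SPS4F, and they overlap in the other 2.

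The rank of a gene among the 3439 features of its own array needs no scaling factor. It is close to what quantile normalization uses, so it is no separate check of those values, and a gene whose signal is the same falls in rank where other features rise. NADP-MDH averaged percentile 93.1 ± 1.4 (SD, n = 6) on WT arrays and 82.2 ± 1.9 on prors2 arrays, and was lower in 6 of 6 pairs. SPS4F went from percentile 83.0 ± 1.3 to 89.6 ± 1.2, higher in 6 of 6 pairs. Both differences had an adjusted p of 0.00433 over the 4 genes in the two-sided exact permutation test. The share of all features with such a shift in rank was not computed.

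SBPASE went from percentile 79.6 ± 5.8 in WT to 62.5 ± 12.5 in prors2, lower in 6 of 6 pairs (exact permutation test, adjusted p = 0.0115). In replicates 5 and 6 its rank was lower in prors2 while its deposited value was not, on arrays whose median feature was higher in prors2. PRK lay at percentile 95.2 ± 0.38 and 95.0 ± 0.71, lower in 5 of 6 pairs (exact permutation test, adjusted p = 0.541). Without prors2 replicate 1, its highest sample, PRK passed by rank, at a fall of 0.49 percentile points (adjusted p = 0.0476).

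Against the array as a whole, the NADP-MDH difference after quantile normalization was lower than all but 5.99% of the tested features, and that of SBPASE lower than all but 12.5%. PRK lay at percentile 45.2 of the tested features and SPS4F at percentile 81.6. On the deposited values the 4 genes lay at percentile 3.11 (NADP-MDH), 12.2 (SBPASE), 19.6 (PRK) and 66.8 (SPS4F). The order of the 4 genes was the same on both scales, but the place of SPS4F among the risers was not far from the middle on the deposited values, where most features rose.

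**Figure D4:**
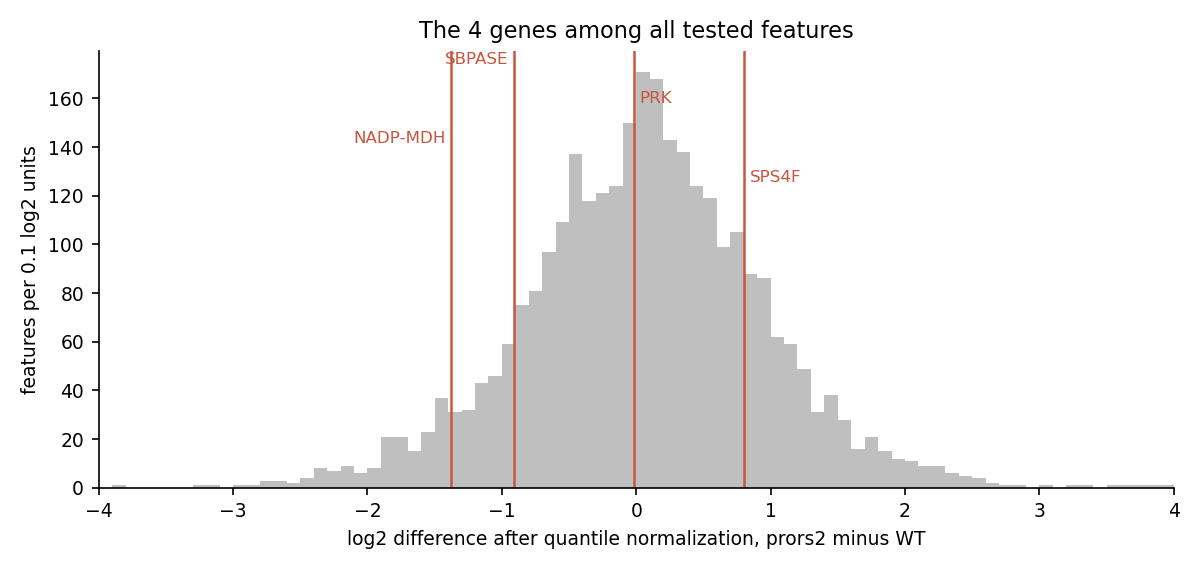
Number of tested features (vertical axis, per bin of 0.1) by their log2 difference after quantile normalization, prors2 minus WT, with the 4 genes as vertical lines; 1 feature lies outside the axis. NADP-MDH at -1.38 and SBPASE at -0.91 lie in the lower flank, PRK at -0.02 near the centre and SPS4F at 0.80 in the upper flank.

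The rest of the pathways was looked for through lists of 25 Calvin cycle loci, 12 malate valve and malate dehydrogenase loci and 19 sucrose synthesis loci. Of these 56 loci, the 4 genes above were the only ones with a single-gene probe, and 2 more loci are tied to probes only together with another gene and were not used. The other sucrose phosphate synthases, the chloroplast transporters of malate and triose phosphate and the Rubisco small subunits are thus not analysed here, and 1 or 2 genes stand for each pathway.

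A list of 10 loci for the reduction of thioredoxins and their targets had 2 tested members, of which 1 fell and 1 did not pass. With 22.4% of all tested features called lower, that count is no result about the list. NTRC (AT2G41680), a plastid NADPH-dependent thioredoxin reductase, averaged 0.331 ± 0.062 (SD, n = 6) on the WT arrays and 0.288 ± 0.043 on the prors2 arrays as deposited. It differed by -0.94 after quantile normalization (SE 0.14, limma adjusted p = 2.07e-04), but only by -0.19 on the deposited values (limma adjusted p = 0.312) and by -0.26 at equal sums (limma adjusted p = 0.158). After median centring NTRC differed by -0.98 and was called (limma adjusted p = 1.40e-04). FTRB (AT2G04700), the catalytic subunit of ferredoxin-thioredoxin reductase, had a deposited value of 0.520 ± 0.116 in WT and 0.559 ± 0.067 in prors2. It differed by -0.41 after quantile normalization (SE 0.16, limma adjusted p = 0.0520), and with the replicate number as a block it passed (limma adjusted p = 0.0117). With no scaling FTRB differed by 0.13 and at equal sums by 0.05 (limma adjusted p = 0.488 and 0.781). After median centring it differed by -0.66 and was called lower (limma adjusted p = 0.00873), so its sign depends on the scaling.

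The genes whose normalized values followed each of the 4 most closely were found by Pearson's r over the 12 samples among 509 other single-gene features above 0 in all samples. These r are descriptions with no test, and the 12 samples share the split into WT and prors2, so any gene with a clear difference scores high. The value in brackets is r of the deviations from the group means, which leaves that split out. For NADP-MDH they were AT3G52070 with r of 0.98 (0.77), AT3G57630 with 0.97 (0.85) and AT5G52960 with 0.97 (0.88). For SPS4F they were AT2G19280 with r of 0.98 (0.81), AT1G31790 with 0.97 (0.76) and AT1G62250 with 0.97 (0.74).

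For SBPASE the closest were AT2G43760 with r of 0.86 (0.73), AT3G50180 with 0.86 (0.77) and NTRC with 0.82 (0.62). For PRK they were GH9B12 (AT2G44570) with r of 0.89 (0.89), AT1G32520 with 0.83 (0.83) and AT2G23390 with 0.71 (0.71). The PRK values within a group and over both groups are nearly equal, since PRK hardly differs between the groups after this normalization. Among the 4 genes themselves, r of the deviations ran from -0.42 for NADP-MDH with SPS4F to 0.06 for SBPASE with PRK, again as a description with no test.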

How the data were processed

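Per the labels, total RNA of 6 WT and 6 prors2 samples of Arabidopsis thaliana was measured, 1 sample per array. The deposited values are relative intensities on a linear scale. No source used here names the array make, the software or a background correction. The table held 0 value columns of other samples and 0 pairs of identical columns. Since array medians lay more than 5% apart, log2 values (zeros left out) were brought to one distribution by quantile normalization and fitted with limma 3.58.1 in R 4.3.3 (group as the one term, two-sided, p-values adjusted over 3024 features by Benjamini-Hochberg). The number of arrays limits the precision.

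Gene names come from the platform's gene table, through gene IDs matched to the TAIR10.1 reference gene table (690 of 692 single-gene probes matched, while 870 probes name several genes and 1877 features are not listed). Coordinates are left out because the array's build is unnamed. The 4 genes and the lists were chosen with earlier results of these data known. Named are the 4 genes, listed loci with a single-gene probe, and the 3 features most alike in pattern to each gene.

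Over 2654 features above 0 in all samples, the deviations of same-numbered WT and prors2 samples from their group means had correlations of 0.212 to 0.399. Each of the 12 samples was closest to the one bearing its number. On the evidence of the data alone, the numbers were taken as pairs in the pair comparisons, the replicate block and the sign-flip test. The main limma fit and the permutation tests did not use the pairing. Alternatives tried were the replicate number or sets of 2 numbers as a block, 3 other scalings, zeros kept (with an offset of 0.117, or at the smallest positive value), filters on dim features, limma's trend and robust options, exact permutation per feature, and 1 sample left out at a time. The block under other scalings was chosen after seeing the data. Tested on simulated data with 200 of 3024 features shifted, the fit found 27% of shifts of 0.5 and 63% of shifts of 1 (log2), and 4 of its 94 calls were false. With the replicate block it found 5% and 45%, with 2 false among 52 calls. The simulated samples shared no deviation by replicate number, unlike the data, so this does not show what the block does here. On the data the block raised the calls from 1427 to 1605. The simulation also shifted far fewer features than were called in the data.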

Additional observations from a re-analysis of the deposited data

Results flagged for a closer look

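In 24 sets of 6 values (the 4 genes, NTRC and FTRB, each group, deposited and normalized), the highest or lowest value was compared with its neighbour by Dixon's ratio at its 95% critical value. In 4 sets it stood apart, and chance alone gives about 1 in 20. The deposited and the normalized sets hold the same samples, so the 24 sets are not independent and the 2 shares cannot be compared directly. The normalized log2 value of PRK in prors2 replicate 1 was 1.69, against 1.35 for the next. In NTRC, WT replicate 5 had a normalized value of -1.70 against -1.29 for the next. Replicate 3 of prors2 was low for NTRC, at a deposited 0.205 against 0.279 and a normalized -2.78 against -2.25. SBPASE was also lowest in prors2 replicate 3, but not past that limit.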

How the results depend on the processing

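NADP-MDH and SPS4F kept their direction and their call in all 15 alternatives and in all 12 fits without 1 sample, from -1.90 to -1.11 and from 0.37 to 1.15 over the alternatives. Without 1 sample they ran from -1.46 to -1.29 and from 0.76 to 0.86. SBPASE lost its call on the deposited values (-0.31, and -0.31 with the replicate block) and at equal sums (-0.38), which left 1 gene called lower on the deposited values, with or without the block, and at equal sums. It kept its call without any 1 sample, at -1.10 to -0.72. PRK was called after median centring (-0.79, and -0.79 with the replicate block), and ran from -0.09 to 0.02 without 1 sample, never past the threshold. Over the array 1427 features were called, 1329 to 1390 without 1 sample and 2193 on the deposited values with the replicate block. On the deposited values 57.8% of the tested features were called higher and 8.9% lower, and at equal sums 55% and 9.85%. With the replicate block at equal sums SBPASE was called, at the same -0.38, and 2 genes were lower; under each of the other 3 scalings the block changed no call of the 4 genes. SBPASE over NADP-MDH ran from 0.64 to 1.03 without 1 sample and passed at 0.81 in the paired test. On normalized values it did not pass, at 0.47, while SBPASE over PRK passed at -0.89. The PRK percentile changed by -0.49 to -0.10 without 1 sample. The causes of these shifts were not tested. How far a dim feature stands above background is unknown, since no background is given.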
